A study of Gallus gallus with 9 samples.

Results

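The mitochondrial genome was measured in the thymus of broiler chicks through the 37 genes that the deposited table places on chromosome MT, out of 25016 genes in all. They were taken by that chromosome label, all of them. Mitochondria make most of the ATP of a resting cell, and their own small circular genome encodes core subunits of respiratory complexes I, III and IV and of ATP synthase, together with the ribosomal and transfer RNAs that translate them. Both strands are transcribed into long precursors, which are cut at the transfer RNAs, so the level of each mature RNA reflects its processing and stability as well as its transcription. In the thymus, developing T cells divide and rearrange their receptor genes, and mitochondria also hold factors that start the death of cells that fail selection.

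All chicks were of the ROSS 308 breed and 21 days old, and each of 3 groups had 3 libraries of whole thymus. The GEN chicks received lipopolysaccharide, a bacterial outer-membrane component that provokes innate immunity, together with genistein, an isoflavone of soy. The LPS chicks are labelled with lipopolysaccharide only, and the CON chicks with the basic diet. The labels give no dose, route or time of treatment, and the diet of the GEN and LPS chicks is not labelled. They name no animal or pool behind a library, so a p-value reflects variation among libraries that may be technical. Values are FPKM, fragments per kilobase of gene scaled to the size of the library, from which whole fragments were recovered, 19618047 to 25863282 per library. CON 3 stood apart from the others. Across tested genes its log2(FPKM + 1) values correlated with those of the other libraries at 0.877 to 0.888, while each other library had a partner at 0.978 or above. The authors' scaling total was 0.767 times the sum of fragments in CON 3 and 1.01 to 1.09 times elsewhere. Against scaling by that sum, this raises every FPKM of CON 3. With the authors' totals the median log2 fold change of tested genes was 0.00 for LPS against CON and 0.01 for GEN against CON. Scaled by the sum of fragments these medians were 0.16 and 0.18. Which scaling comes closer to the RNA of the tissue was not tested. Results that rest on CON 3 are therefore given with and without it. The table pairs no identifier with a gene name, so thymus markers and nuclear genes of the respiratory chain could not be looked up, and the tissue label was not checked.

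The 37 genes lie between bases 1228 and 16775 of chromosome MT in GRCg6a, 28 on the plus and 9 on the minus strand. RefSeq's annotation of a later assembly, GRCg7b, also holds 37 mitochondrial genes, 13 for proteins, 2 for ribosomal RNAs and 22 for transfer RNAs of 65 to 76 bases. It pairs none of the identifiers used here, so genes were set beside it by length. In this way 15 genes of 100 bases or more each matched 1 RefSeq gene, 12 at exactly the same length and the others within 3 bases. COX2 and ATP6, both of 684 bases, were told apart because only ATP6 overlaps ATP8. Symbols below rest on this match of lengths and not on an identifier. Of the remaining genes, 21 have 65 to 76 bases and are called transfer-RNA-sized. The last, ENSGALG00000033462 of 135 bases, matched no RefSeq mitochondrial gene.

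The 3 cytochrome oxidase subunits and ATP6 dominated the mitochondrial RNA of every library. COX1, COX2, COX3 and ATP6 were the 4 most abundant of the 15 matched genes in 9 of 9 libraries and held 70.8% to 79.1% of the mitochondrial fragments. COX1 (ENSGALG00000032142, bases 6645 to 8192, plus strand), the catalytic subunit of cytochrome c oxidase, led with a mean of 4461 FPKM over the 9 libraries. It ranked between 1 and 7 among all 25016 genes of a library. COX3 followed at 3855 FPKM, ATP6 at 3822 FPKM and COX2 at 3258 FPKM. COX1 exceeded COX3 in 7 of 9 libraries and COX3 exceeded ATP6 in 5 of 9, so the order of these neighbours varied between libraries, whereas ATP6 exceeded COX2 in 9 of 9. Differences between genes were not tested. A step of 2.86-fold to 5.21-fold separated COX2 from CYTB, the next by mean over the 9 libraries, in each library. CYTB ranked between 5 and 7 and exceeded ND3 in 7 of 9 libraries. It was thus not the next gene in each library, and where it was not, the step below COX2 was smaller.

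**Figure D1:**
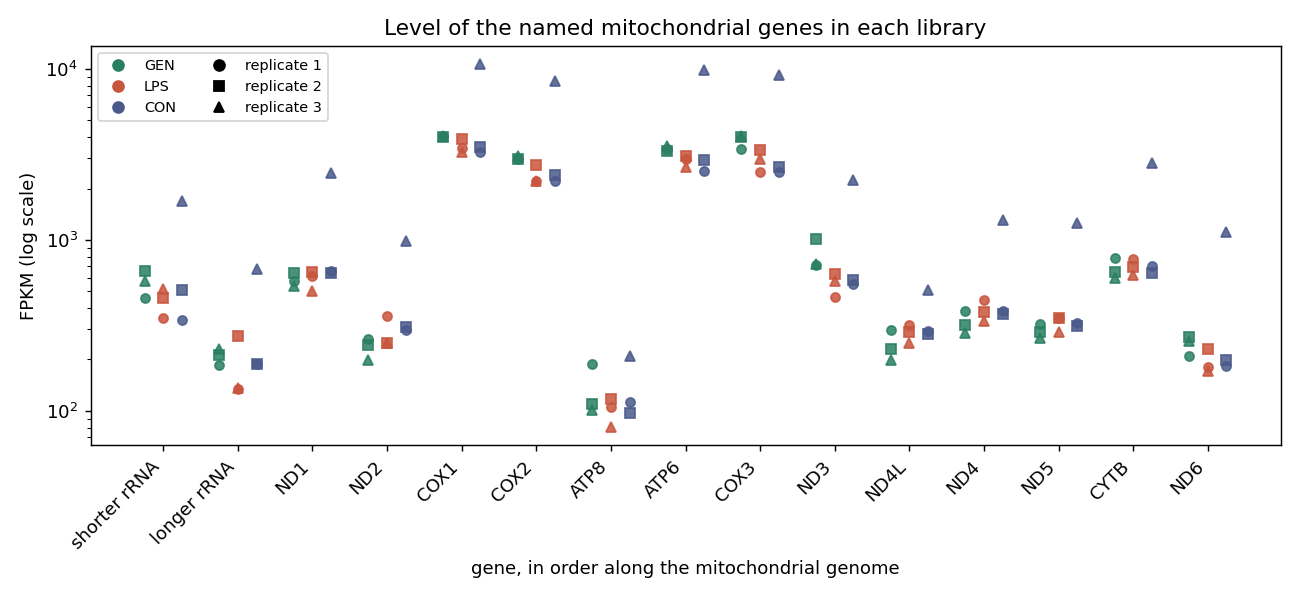
FPKM (log axis) of the 15 matched genes, in order along the mitochondrial genome, with 1 point per library, the groups GEN, LPS and CON from left to right and the replicate shown by the symbol. COX1, COX2, COX3 and ATP6 are the 4 highest genes within each library, and CON 3 is the highest library for each of the 15 genes.

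Among the oxidase subunits, COX1 measured 4032, 3993 and 4032 FPKM in GEN, 3453, 3902 and 3290 FPKM in LPS, and 3252, 3508 and 10685 FPKM in CON. The 3 GEN libraries lay close together, above all LPS libraries and above CON 1 and CON 2 and below CON 3. COX2 (ENSGALG00000032456, bases 8331 to 9014), which takes electrons from cytochrome c, measured 2961, 2982 and 3105 FPKM in GEN, 2225, 2737 and 2201 FPKM in LPS, and 2222, 2387 and 8503 FPKM in CON. COX3 (ENSGALG00000035334, bases 9923 to 10706), the third core subunit, measured 3396, 3999 and 4058 FPKM in GEN, 2491, 3341 and 2982 FPKM in LPS, and 2499, 2674 and 9260 FPKM in CON. Both showed the pattern of COX1, with GEN above LPS and no overlap. In GEN 2 and GEN 3 the level of COX3 passed that of COX1, with a COX3 to COX1 ratio of 1.00 and 1.01, which no other library reached.

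ATP synthase is represented by an overlapping pair. ATP6 (ENSGALG00000041091, bases 9240 to 9923), part of the proton channel, measured 3392, 3330 and 3525 FPKM in GEN, 2970 (2969.7), 3109 and 2690 (2689.6) FPKM in LPS, and 2515, 2939 and 9925 FPKM in CON. ATP8 (ENSGALG00000032465, bases 9085 to 9249), a small accessory subunit, measured 188, 109.8 and 102 FPKM in GEN, 105, 118 and 80.5 FPKM in LPS, and 113, 97.2 and 209 FPKM in CON. GEN lay above LPS without overlap for ATP6, while the ranges of ATP8 overlapped. The 2 genes share 10 bases and are known to be carried on 1 RNA in vertebrates, yet the FPKM of ATP8 was 0.0211 to 0.0556 times that of ATP6. How fragments that touch both genes were counted is not given in the sources used here, so this ratio cannot be read as a ratio of transcripts.

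CYTB (ENSGALG00000032079, bases 14893 to 16035), the mitochondrial subunit of complex III, measured 780.1, 647 and 596 FPKM in GEN, 779, 698 and 625 FPKM in LPS, and 705, 644 and 2826 FPKM in CON. The groups overlapped in each comparison, and GEN 3 was the lowest library.

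The 7 subunits of complex I, which takes electrons from NADH, were lower than the oxidase subunits and moved in different ways. ND1 (ENSGALG00000042750, bases 4050 to 5024) measured 575, 639 and 541 FPKM in GEN, 619, 652 and 502 FPKM in LPS, and 659, 643 and 2456 FPKM in CON. ND2 (ENSGALG00000043768, bases 5241 to 6279) measured 264, 242 and 197 FPKM in GEN, 362, 248 and 251 FPKM in LPS, and 299, 309 and 990.5 FPKM in CON. For both genes every GEN library lay below every CON library, CON 1 and CON 2 included, while GEN and LPS overlapped. For ND1 the gap was small, 639 FPKM in GEN 2 against 643 FPKM in CON 2, and with libraries scaled by their sum of fragments GEN 2, at 693 rescaled FPKM, lay above CON 1 at 666 and CON 2 at 657.

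ND4 (ENSGALG00000036229, bases 11486 to 12863) measured 385, 320.3 and 287 FPKM in GEN, 448, 378 and 337 FPKM in LPS, and 382, 368 and 1303 FPKM in CON. ND5 (ENSGALG00000029500, bases 13071 to 14888), with ND2 and ND4 a proton-pumping subunit of the membrane arm, measured 324, 290.0 and 266 FPKM in GEN, 349, 351 and 289 FPKM in LPS, and 328, 314 and 1258 FPKM in CON. ND4L (ENSGALG00000042478, bases 11196 to 11492), which overlaps ND4 by 7 bases, measured 298, 229.6 and 198 FPKM in GEN, 319, 288 and 248 FPKM in LPS, and 293, 280.3 and 513 FPKM in CON. Each of these 3 genes was lowest in GEN 3, and the groups overlapped in each comparison. The ratio of ND4L to ND4 FPKM was 0.688 to 0.773 in 8 libraries and 0.394 in CON 3. As for ATP8 and ATP6, it cannot be read as a ratio of transcripts.

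ND3 and ND6 instead averaged higher in GEN than in LPS, like the oxidase subunits. ND3 (ENSGALG00000030436, bases 10776 to 11126) measured 716, 1007 and 727 FPKM in GEN, 465, 631 and 579 FPKM in LPS, and 556, 583 and 2251 FPKM in CON. GEN lay above LPS without overlap. ND6 (ENSGALG00000037838, bases 16184 to 16705), the 1 protein gene on the minus strand, measured 209, 271 and 256 FPKM in GEN, 181, 229 and 171 FPKM in LPS, and 182, 199.9 and 1109.9 FPKM in CON. GEN 1 lay below LPS 2, so those groups overlapped, and CON 3 held 5.22 times the mean of the other 8 libraries, the largest such ratio of the 15 genes. Whether strand was used in counting is not given in the sources used here. ND6 fragments therefore cannot be told apart from those of plus-strand RNA at the same bases.

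The ribosomal RNA genes averaged 616 FPKM over the 9 libraries for the shorter (ENSGALG00000036956, 976 bases, 1297 to 2272), between ND1 and ND4 in the order of levels, and 248 FPKM for the longer (ENSGALG00000043598, 1621 bases, 2346 to 3966), between ND4L and ATP8. The shorter gene, for the RNA of the small ribosomal subunit by its length, measured 458, 659 and 575 FPKM in GEN, 348, 456 and 516 FPKM in LPS, and 338, 512 and 1682 FPKM in CON. The longer measured 186, 212 and 232 FPKM in GEN, 134, 276 and 136 FPKM in LPS, and 188, 188 and 679 FPKM in CON. Without CON 3 their coefficients of variation over 8 libraries were 22.4% and 24.3%, against a median of 14.8% for the 13 protein genes (9.24% for COX1 to 28.1% for ATP8). The FPKM ratio of the longer to the shorter gene ran from 0.264 in LPS 3 to 0.604 in LPS 2. In CON 3 both genes rose alike, to 3.48 and 3.50 times the mean of the other 8 libraries. How library preparation treated ribosomal RNA was not examined here. These levels are therefore no measure of ribosomal against messenger RNA in the cell.

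Together the 37 genes took 1.81%, 1.93% and 1.88% of the gene fragments in GEN, 1.54%, 1.78% and 1.52% in LPS, and 1.43%, 1.55% and 3.94% in CON. The 95% Wilson interval was 1.42% to 1.43% in CON 1, the lowest library, and 3.94% to 3.95% in CON 3, the highest, and covers counting error only. GEN averaged 1.88% ± 0.0585 and LPS 1.61% ± 0.143 (SD, n = 3 each), a difference of 0.263 percentage points with no overlap and a two-sided exact permutation p of 0.1. That is the smallest p that 3 against 3 libraries allow, and 0.3 after Benjamini-Hochberg adjustment over the 6 share tests run. In whole thymus, a change in the RNA of each cell and a change in the mix of cells cannot be told apart. CON averaged 2.31% ± 1.42 (SD, n = 3), with CON 3 setting both values. The difference of GEN minus CON was -0.431 percentage points (exact permutation p = 1.0, adjusted 1.0) and that of LPS minus CON -0.694 (exact p = 0.8, adjusted 0.96). Without CON 3 both turned, with GEN 0.388 percentage points above CON (exact p = 0.1, the smallest that 3 against 2 allow) and LPS 0.125 above (exact p = 0.6).

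The make-up of the mitochondrial RNA also differed between libraries, and a share within this RNA does not depend on the scaling of a library. The groups of genes by complex were formed after values had been seen, so these shares are given without a test. The oxidase genes COX1, COX2 and COX3 held 63.1%, 63.9% and 65.4% of the mitochondrial fragments in GEN, 59.2%, 62.5% and 62.3% in LPS, and 60.2%, 60.5% and 57.6% in CON. Each GEN library lay above every LPS and CON library. The 7 complex I genes held 13.9%, 13.5% and 11.7% in GEN, 17.3%, 14.7% and 14.7% in LPS, and 17.3%, 16.0% and 17.5% in CON, with each GEN library below every other. CON 3, which had the most mitochondrial RNA, thus had the smallest oxidase share and the largest complex I share. These shares are parts of 1 total, so a lower share need not be a lower level. The summed FPKM of the complex I genes was 2770, 2999 and 2473 in GEN and 2744, 2777 and 2376 in LPS. In CON it was 2699, 2697 and 9881. GEN and LPS thus overlapped in the level of complex I RNA.

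**Figure D2:**
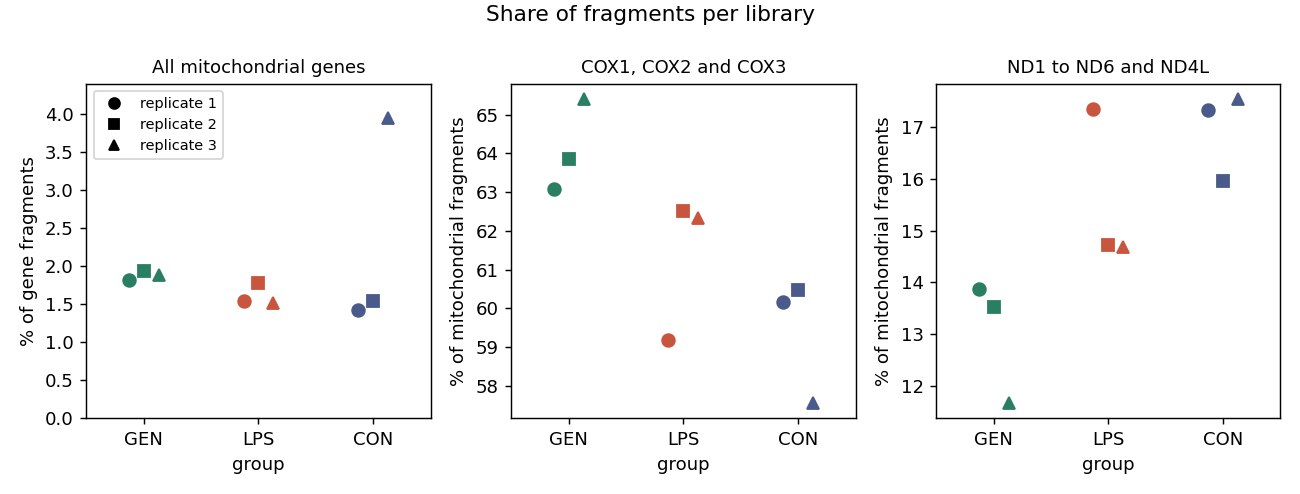
Share of fragments in each library, for GEN, LPS and CON from left to right, with 1 point per library and the replicate shown by the symbol; the left panel is in percent of all gene fragments and starts at 0, the other panels are in percent of mitochondrial fragments and do not start at 0. The 3 GEN libraries hold 63.1% to 65.4% of mitochondrial fragments in COX1, COX2 and COX3 and 11.7% to 13.9% in complex I genes, outside the range of the other 6 libraries in both panels. Both are parts of 1 total, so a lower share need not be a lower level.

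Single genes carried these shares unevenly. COX3 held 15.4%, 17.6% and 18.0% of mitochondrial fragments in GEN, 13.1%, 15.5% and 16.3% in LPS, and 13.8%, 13.8% and 14.1% in CON, where GEN lay above CON without overlap and overlapped LPS. COX1 held 36.0%, 34.8% and 35.4% in GEN, 35.9%, 35.8% and 35.5% in LPS, and 35.6%, 35.9% and 32.1% in CON, so that its groups overlapped and CON 3 was lowest. COX2 was the oxidase gene whose share in GEN lay above both other groups. Its lowest GEN share was 11.468% in GEN 2. The highest shares of the other groups were 11.113% in LPS 2 and 11.303% in CON 3. ND5 held 3.40%, 2.96% and 2.74% in GEN, 4.26%, 3.79% and 3.67% in LPS, and 4.21%, 3.77% and 4.44% in CON, so that GEN lay below both other groups. ND4 did the same, with 3.06%, 2.48% and 2.24% in GEN, 4.14%, 3.09% and 3.24% in LPS, and 3.72%, 3.35% and 3.49% in CON. ND1 held 3.24%, 3.50% and 2.99% in GEN, 4.05%, 3.77% and 3.41% in LPS, and 4.54%, 4.14% and 4.65% in CON. ND1 shares were lower in LPS than in CON without overlap, while GEN and LPS overlapped through GEN 2 and LPS 3. ND3 went the other way against LPS. Its lowest GEN share, 1.445% in GEN 3, lay above its highest LPS share, 1.417% in LPS 3. CON 3, at 1.535%, overlapped GEN. ND6 averaged 0.728% in GEN and 0.655% in LPS, with overlap. The ND2 and ND4L shares averaged lower in GEN than in LPS and overlapped. How often shares of other genes separate in this way was not counted.

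The transfer-RNA-sized genes were almost without fragments. Of 21 such genes, 6 had 0 fragments in all 9 libraries, which allows up to 3 fragments each per library, 6 had at least 1 fragment in each library, and 9 lay in between. The highest count was 38 fragments, for ENSGALG00000031197 in CON 3. RNA libraries of this kind recover such short RNAs poorly, so the counts are no measure of transfer RNA levels. The 21 genes held 28, 20 and 48 fragments in GEN, 78, 42 and 49 in LPS, and 96, 54 and 175 in CON. As a share of mitochondrial fragments this was 0.00756%, 0.00528% and 0.0109% in GEN, 0.0196%, 0.0105% and 0.0135% in LPS, and 0.0302%, 0.0145% and 0.0217% in CON. GEN lay below CON without overlap, with a difference of -0.0142 percentage points (two-sided exact permutation p = 0.1, adjusted 0.3). Few genes weighed heavily in this sum. ENSGALG00000033139 and ENSGALG00000031197 held 9 and 19 of the 54 fragments in CON 2, the lowest CON library. They held 2 and 12 of the 48 in GEN 3, the highest GEN library. Without these genes CON 2 held fewer fragments than GEN 3, and a smaller share, so GEN and CON then overlapped. The separation of GEN and CON thus rests on them. The difference was -0.00664 percentage points for GEN minus LPS and -0.0076 for LPS minus CON (exact p = 0.2 each, adjusted 0.3), and both pairs of groups overlapped.

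Of these short genes, ENSGALG00000033139 (bases 6434 to 6506, minus strand) held 3, 1 and 2 fragments in GEN, 9, 3 and 5 in LPS, and 19, 9 and 35 in CON. It lies in a run of 4 minus-strand transfer-RNA-sized genes between ND2 and COX1. As for ND6, fragments of these genes cannot be told apart from those of plus-strand RNA. Another, ENSGALG00000034813 (bases 6508 to 6573), held 2, 1 and 1 fragments in GEN, 4, 7 and 3 in LPS, and 12, 2 and 12 in CON.

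A pair of adjacent genes beyond COX1 split the libraries in another way. ENSGALG00000033462 (bases 8124 to 8258, minus strand), the unmatched gene that overlaps COX1 by 69 bases, held 1, 0 and 24 fragments in GEN, 27, 0 and 25 in LPS, and 22, 23 and 29 in CON. Its neighbour ENSGALG00000031197 (bases 8261 to 8329, plus strand) held 0, 1 and 12 fragments in GEN, 17, 1 and 12 in LPS, and 16, 19 and 38 in CON. GEN 1, GEN 2 and LPS 2 had at most 1 fragment on each gene, and each of the other 6 libraries had at least 12. COX1, whose end the first gene overlaps, was not lower in these 3 libraries, at 4032, 3993 and 3902 FPKM. All 3 CON libraries are among the 6, with 1 GEN and 2 LPS libraries, and a difference between groups in this split was not tested. Whether strand was used in counting is not given in the sources used here, so fragments of the first gene cannot be told apart from those of COX1 on the other strand.

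**Figure D3:**
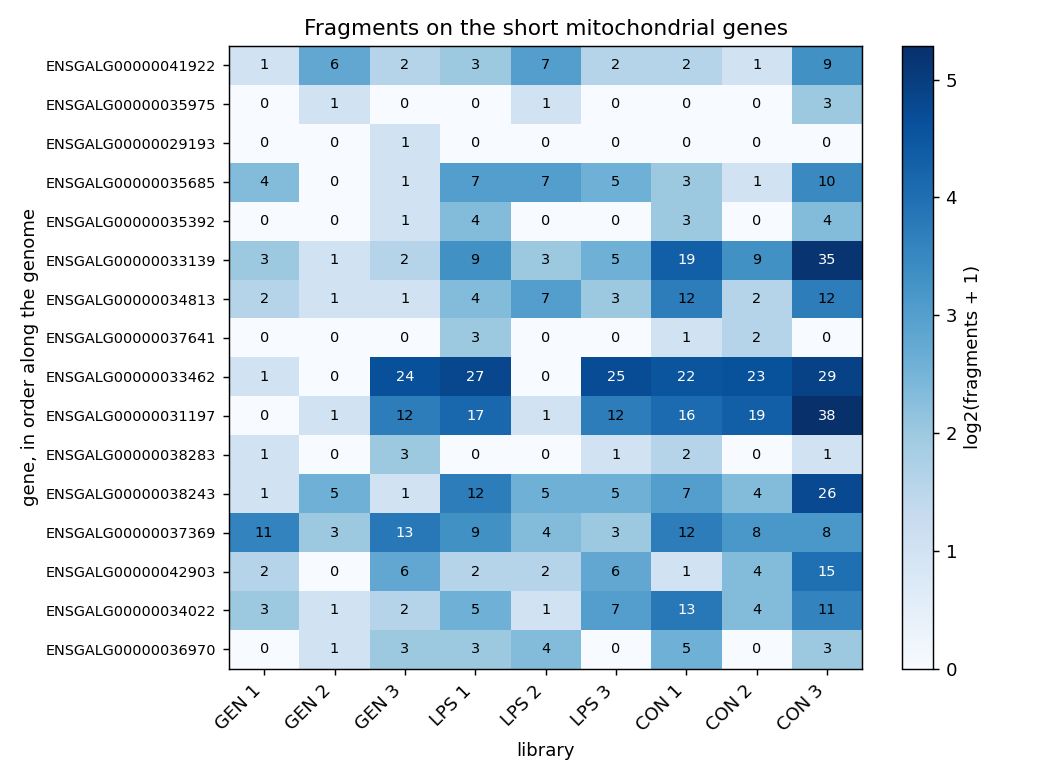
Fragments (numbers in the cells, shading on a log2(fragments + 1) scale) of the 15 transfer-RNA-sized genes with at least 1 fragment and of ENSGALG00000033462, as rows in genome order, in each library (columns, GEN, LPS and CON from left to right). ENSGALG00000033462 and ENSGALG00000031197 hold 0 or 1 fragments in GEN 1, GEN 2 and LPS 2 and 12 to 38 in the other libraries.

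Differences between groups were tested with limma, a linear model with a shared variance estimate, on log2(FPKM + 1) over the 13506 genes that reached 1 FPKM in 3 libraries or more. Of the 37 mitochondrial genes, 27 passed this filter, namely the 13 protein genes, both ribosomal RNA genes, 11 transfer-RNA-sized genes and ENSGALG00000033462. The 3 comparisons share libraries and are given side by side. Fold changes understate the change of low genes on this scale.

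GEN against LPS sets the chicks labelled with both agents beside those labelled with lipopolysaccharide. COX1, COX2, COX3, ATP6 and ND3 were higher in GEN without overlap, 5 of 27 members, against 8.91% of all tested genes. ENSGALG00000035685 and ENSGALG00000034813 were lower without overlap, 2 of 27, against 11.3% of all genes. With libraries scaled by their sum of fragments these counts were again 5 and 2, against 9.79% and 10.2% of all genes. COX1 averaged 4019 ± 22.9 FPKM in GEN and 3548 ± 317 in LPS, COX3 3817 ± 367 in GEN and 2938 ± 427 in LPS, and ATP6 3415 ± 99.5 in GEN and 2923 ± 214 in LPS (SD, n = 3 each). None of the 27 members passed limma's test at an adjusted p under 0.05 (0% of all genes), and 0 had an unadjusted p under 0.05 (1.74% of all genes, higher, and 1.5%, lower). A fit of the recovered fragments by limma-voom gave the same counts of 0 and 0 members, against 2.18% of all genes higher and 1.24% lower at an unadjusted p under 0.05. The log2 fold changes were 0.18 (SE 0.43) for COX1, 0.38 (SE 0.47) for COX3 and 0.23 (SE 0.47) for ATP6, each with a limma adjusted p of 1.0. The lowest p among members higher in GEN belonged to ENSGALG00000037369, with 0.67 (SE 0.45), and among those lower to ENSGALG00000035685, with -1.30 (SE 0.66), both at a limma adjusted p of 1.0. The first held 11, 3 and 13 fragments in GEN and 9, 4 and 3 in LPS, and the second 4, 0 and 1 in GEN and 7, 7 and 5 in LPS.

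CON 3 enters that comparison through the shared variance. Without it these fold changes were the same and the standard errors were 0.10 for COX1, 0.13 for COX3 and 0.10 for ATP6. In that fit 0 members passed at an adjusted p under 0.05, with a smallest limma adjusted p of 0.299 for a member, that of ND3. An unadjusted p under 0.05 was reached by 4 members higher in GEN (6.32% of all genes) and by 2 lower (7.37%), both transfer-RNA-sized. The 4, named after their values were seen, were COX2 with 0.34 (SE 0.11), COX3 with 0.38 (SE 0.13), ND3 with 0.54 (SE 0.16) and ND6 with 0.34 (SE 0.13). The signs are the same in both fits because CON 3 is in neither group compared. Of 13 protein genes, 7 lay above 0 (COX1, COX2, COX3, ATP6, ATP8, ND3 and ND6) and 6 below (ND1, ND2, ND4, ND4L, ND5 and CYTB). ND1, at -0.0084, lay above 0 when libraries were scaled by their sum of fragments. The median log2 fold change of all tested genes was -0.02.

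**Figure D4:**
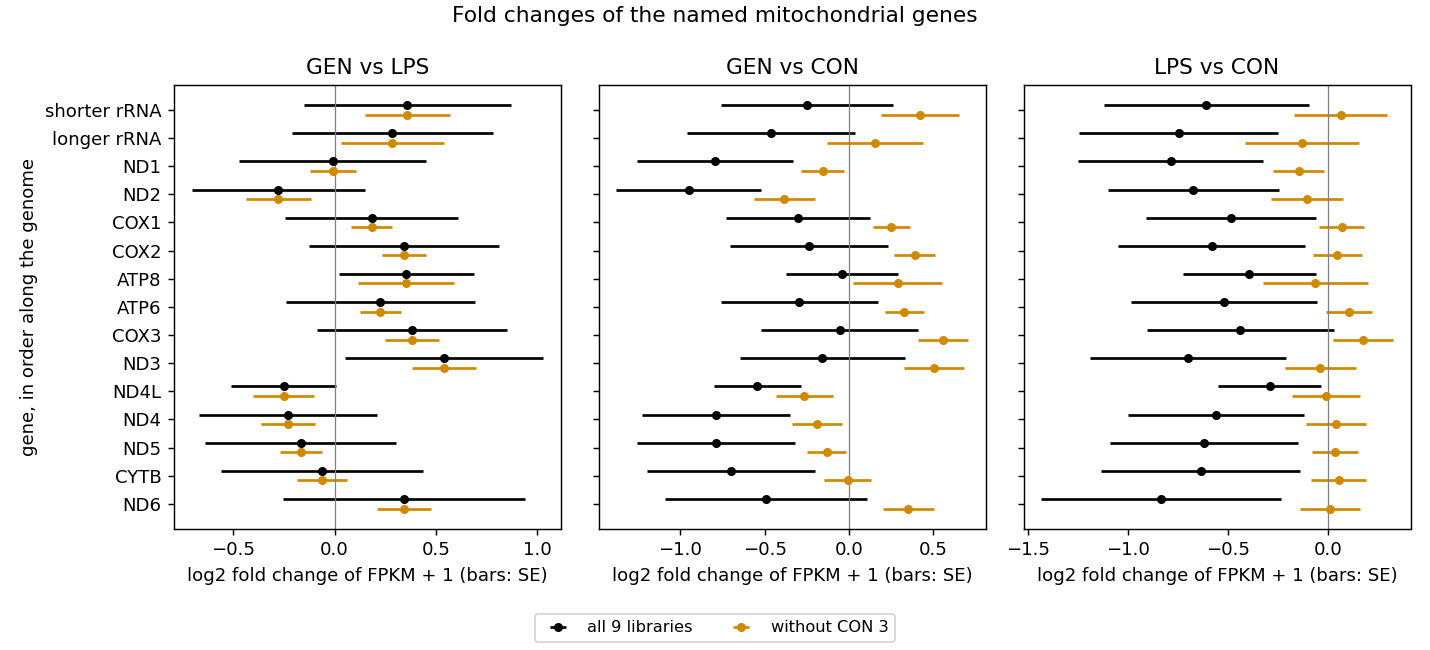
log2 fold change of FPKM + 1 with its standard error (bars) for the 15 matched genes, as rows in genome order, in GEN vs LPS, GEN vs CON and LPS vs CON, from the limma fit on all 9 libraries and without CON 3; each panel has its own x axis. In GEN vs LPS the values do not change and their errors shrink without CON 3, while in GEN vs CON the value of COX3 is -0.056 with CON 3 and 0.56 without it.

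GEN against CON sets both agents together beside the basic diet. The fold changes of all 27 members were below 0, with a median of -0.70 against 0.01 over all tested genes, and those of ATP8, COX3 and ND3 lay above 0 when libraries were scaled by their sum of fragments. Without CON 3, 10 members were above 0 and 17 below, with a median of -0.16 against -0.02 over all tested genes. No member was higher in GEN without overlap, against 8.83% of all genes, and 5 were lower, ND1, ND2 and 3 transfer-RNA-sized genes, against 12.3%. Scaled by the sum of fragments, 0 were higher and 4 lower without overlap, ND1 being the gene lost, against 15.8% and 5.68%. limma called 0 of the 27 (0% of all genes), and 0 higher and 5 lower had an unadjusted p under 0.05, against 4.68% and 6.12% of all genes. These 5 were all transfer-RNA-sized genes with few fragments, and ND1 and ND2 had limma unadjusted p of 0.121 and 0.055. By limma-voom 0 passed the adjusted threshold, and 0 higher and 3 lower the unadjusted one, against 8.47% and 2.05% of all genes. The lowest p belonged to ENSGALG00000033139, with 1.22 ± 0.648 FPKM in GEN and 15.7 ± 13.3 in CON (SD, n = 3 each), a log2 fold change of -2.63 (SE 0.56) and a limma adjusted p of 0.44. Without CON 3 its log2 fold change was -2.01 (SE 0.41). Over the 20 alternatives its adjusted p ranged from 0.0485 to 0.700. The lowest came from weighting each library by its estimated quality, the 1 setting in which a mitochondrial gene passed. That fit called 38 genes higher and 16 lower of the 13506, or 0.281% and 0.118%. COX1 had a log2 fold change of -0.30 (SE 0.43), COX3 of -0.056 (SE 0.47) and ATP6 of -0.29 (SE 0.47), with limma adjusted p of 0.722, 0.958 and 0.752.

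GEN vs CON shares its 3 GEN libraries with GEN vs LPS, and its values without CON 3 are given for themselves. COX1 had a log2 fold change of 0.25 (SE 0.11), COX2 of 0.39 (SE 0.12), COX3 of 0.56 (SE 0.15), ATP6 of 0.33 (SE 0.11), ND3 of 0.50 (SE 0.18) and ND6 of 0.35 (SE 0.15). These 6 genes were then higher in GEN without overlap, against 15.6% of all genes. Lower without overlap were 5 members, ND1, ND2 and 3 transfer-RNA-sized genes, against 20.4%. ND2 had -0.38 (SE 0.18), ND4L -0.26 (SE 0.17), ND4 -0.19 (SE 0.15), ND1 -0.16 (SE 0.13), ND5 -0.13 (SE 0.12) and CYTB -0.0085 (SE 0.14). limma called 0 members in this fit, with a smallest adjusted p of 0.221, and 5 higher and 3 lower had an unadjusted p under 0.05 (6.57% and 9.36% of all genes). The 5 were COX2, COX3, ATP6, ND3 and ND6, and the 3 were all transfer-RNA-sized genes. ND2 had a limma unadjusted p of 0.066. This fit sets 3 GEN libraries against 2 CON libraries, and fold changes of genes outside the naming rule are given here after their values were seen.

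LPS against CON sets lipopolysaccharide beside the basic diet. With all 9 libraries 26 of 27 members were below 0, with a median log2 fold change of -0.66 against 0.00 over all tested genes. Scaling by the sum of fragments brought ENSGALG00000041922 above 0. Without CON 3, 14 were above 0 and 13 below, with a median of 0.01. No member was higher in LPS without overlap, against 5.47% of all genes, and 2 were lower, ENSGALG00000033139 and ENSGALG00000031197, against 6.76%. Scaled by the sum of fragments the counts were 0 and 2, against 9.26% and 2.61%, and without CON 3 they were 1 and 2, against 9.68% and 12.4%. limma called 0 of the 27 (0% of all genes), and 0 higher and 1 lower had an unadjusted p under 0.05, against 2.45% and 2.07% of all genes. Without CON 3 limma gave 0 higher and 1 lower at that unadjusted threshold, against 2.67% and 3.15% of all genes. By limma-voom 0 passed the adjusted threshold, and 0 higher and 1 lower the unadjusted one, against 3.89% and 0.696% of all genes. ENSGALG00000033139 had the lowest p, with 3.02 ± 1.46 FPKM in LPS and 15.7 ± 13.3 FPKM in CON (n = 3 each, SD), a log2 fold change of -1.80 (SE 0.56) and a limma adjusted p of 0.637, which ranged from 0.140 to 0.807 over the alternatives. Without CON 3 its log2 fold change was -1.18 (SE 0.41). The 1 member above 0 was ENSGALG00000035685, with 0.33 (SE 0.66) and a limma adjusted p of 0.821, and lay below 0 without CON 2. COX1 had -0.49 (SE 0.43), COX3 -0.44 (SE 0.47) and ATP6 -0.52 (SE 0.47), with limma adjusted p of 0.641, 0.670 and 0.643. Without CON 3 these 3 values were 0.067 (SE 0.11), 0.17 (SE 0.15) and 0.10 (SE 0.11).

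CON 3 did not raise all mitochondrial genes alike. Against the 8 other libraries' mean, its FPKM was 1.83 times as high for ATP8 and 1.91 times for ND4L, 2.90 times for COX1, 4.07 times for ND1, 4.13 times for CYTB and 5.22 times for ND6. ATP8 and ND4L, the lowest here, have 165 and 297 bases, and each overlaps a neighbouring gene. How fragments that touch overlapping genes were counted is not given in the sources used here. An effect of gene length or counting was not tested. With libraries scaled by their sum of fragments, these ratios ran from 1.34 for ATP8 to 3.81 for ND6, with a median of 2.49 over the 13 protein genes. The ribosomal RNA genes lay close to that median, at 2.54 and 2.56.

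Outside the mitochondrial genome, the genes whose log2(FPKM + 1) followed the summed mitochondrial level most closely over the 9 libraries were sought among 5365 genes with at least 10 FPKM in each library. Nearest was ENSGALG00000047981 on chromosome 32 (452461 to 458542), with a Pearson correlation of 0.998 over 9 libraries and 0.976 over the 8 without CON 3. It measured 21.1, 23.5 and 23.4 FPKM in GEN, 17.7, 21.2 and 17.9 FPKM in LPS, and 16.1, 17.7 and 74.4 FPKM in CON. ENSGALG00000044536 on chromosome 30 (273453 to 276588) followed at 0.990 and 0.936, and ENSGALG00000001258 on chromosome 1 (195605956 to 195618448) at 0.989 and 0.826. The files name none of these genes. These correlations were picked as the highest of 5365, and 1 library, CON 3, spans most of the range, so they are a description.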

How the data were processed

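Per the labels' protocols, thymus RNA was extracted with Trizol and TruSeq libraries were prepared. The submitters' processing notes name featureCounts 1.5.0-p3, CASAVA 1.8 and the build GRCg6a. Aligner, annotation release and strand setting are not given in the sources read. The authors deposited FPKM for 25016 genes in 9 libraries, with 0 columns of other samples. In each library 100% of FPKM values above 0, times gene length, were whole multiples of 1 step within 0.01, which gave whole fragments per gene and the authors' scaling total.

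For tests, log2(FPKM + 1), a pseudocount of 1, went into 1 limma 3.58.1 fit (R 4.3.3, variance trend on) of the 9 libraries. Its two-sided p-values were adjusted by Benjamini-Hochberg over 13506 genes, with a threshold of 0.05. Shares were compared by two-sided exact permutation, where 3 against 3 cannot go below 0.1. Python 3.11.15 and matplotlib 3.10.9 did the rest. Scripts were tested on simulated data. Fold changes are given in full for the members of lowest p in each direction and the 3 most abundant. Other genes are named by their levels. The gene lists planned for the respiratory chain and cell types needed gene names and were not used here. The members and lists were chosen with earlier results of these data known. Alternatives were another pseudocount, filters, scalings, quality weights, limma-voom, a replicate block, a looser threshold and leaving out each library.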

Additional observations from a re-analysis of the deposited data

How the results depend on the processing

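The number of mitochondrial genes called was 0 in each comparison under all alternatives, including leaving out each library (0 to 0), except for 1 gene in GEN vs CON with library quality weights, ENSGALG00000033139, at a log2 fold change of -2.26, in a fit that called 38 genes higher and 16 lower of 13506. Every other fit called at most 3 genes of any kind, the most being at the looser threshold in GEN vs CON. The counts of 0 are therefore not particular to mitochondrial genes. Leaving out CON 3 reversed the difference in mitochondrial share, to 0.388 percentage points for GEN against CON and 0.125 for LPS against CON. Leaving out 1 library gave -1.13 to 0.125 percentage points in LPS vs CON, -0.87 to 0.388 in GEN vs CON and 0.217 to 0.345 in GEN vs LPS. Differences in the share of genes under 100 bases lay from -0.00865 to -0.00412 percentage points for GEN against LPS, from -0.0181 to -0.0102 for GEN against CON, and from -0.0114 to -0.00356 for LPS against CON. Leaving out CON 3 was an alternative chosen after seeing the data. Members higher without overlap then numbered 6 for GEN against CON and 1 for LPS against CON, against 15.6% and 9.68% of all genes. With all libraries they numbered 0 and 0, against 8.83% and 5.47% of all genes. The share over all genes thus rose as well.

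Among the genes given in full, COX1, COX3, ATP6 and ENSGALG00000035685 had fold changes that reversed, and other genes reversed too without CON 3, as the plot of fold changes shows for COX2, ND3 and ND6 in GEN vs CON. In LPS vs CON, quantile normalization gave 0.055 for COX1, 0.15 for COX3 and 0.12 for ATP6, quality weights 0.046, 0.22 and 0.088. Leaving out each library gave -0.79 to 0.067 for COX1, -0.77 to 0.17 for COX3, -0.89 to 0.10 for ATP6 and -0.25 to 1.06 for ENSGALG00000035685, with the 3 protein genes above 0 without CON 3 and the last gene below 0 without CON 2. In GEN vs CON, quantile normalization gave 0.19 for COX1, 0.58 for COX3 and 0.35 for ATP6, quality weights 0.25, 0.56 and 0.35. Leaving out each library gave -0.61 to 0.25 for COX1, -0.39 to 0.56 for COX3 and -0.66 to 0.33 for ATP6, above 0 without CON 3. COX3 was also 0.15 scaled by the sum of fragments, 0.14 by the sum outside chromosome MT, 0.15 with limma-voom and 0.03 without GEN 1. The cause was not tested. Under the sum of fragments, the median gene shifted to 0.16 (log2) for LPS against CON and 0.18 for GEN against CON.

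What a replicate number stands for is not labelled. Same-numbered libraries' deviations correlated at -0.1 to 0.34, so they were not taken as pairs. With the replicate number as a block 0 mitochondrial genes were called in each comparison, and permuting shares within the numbers, which cannot go below a p of 0.25, gave an exact permutation p of 0.25 for the mitochondrial share of GEN against LPS and 1.0 for both comparisons with CON. Counts of 0 to 38 fragments limit the transfer-RNA-sized genes.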
